A study of Mus musculus with 2 samples.

Results

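Of the 27998 genes in the deposited tables, 7 are described here: the stefin A genes Stfa1, Stfa2, Stfa2l1, Stfa3, BC100530 and Gm5483, and the aspartic protease gene Asprv1. They were chosen by their levels over all cells, for a rise in the library of cells from orthodontically loaded bone over the control library, so that contrast is given for them as a description and without a test. The study made 1 library per group by droplet sequencing of transcript 3' ends from sorted F4/80+CD11b+ cells of alveolar bone of 8-week-old male C57/B6 J mice. The control library came from mice without force, and the OTM library, labelled Case, from mice whose first molar had been pulled by a nickel-titanium coil spring for 7 days (orthodontic tooth movement). No allele or drug was given for either group, and the study's mice were divided between the groups at random, but how many went into each library was not given in the sources used here. After filtering, the control library held 2835 cells with 14493851 unique molecular identifiers (UMIs, each tagging 1 captured RNA molecule) and a median of 3998 UMIs per cell. The OTM library held 2052 cells with 16472699 UMIs and a median of 6861.5 per cell, so it was sampled more deeply per cell. Of the cell barcodes, 6 occurred in both libraries. With 1 library per group, no test between groups was possible, the animals, the library and the force cannot be told apart, and all 95% intervals cover counting error only.

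Stefins are small intracellular cystatins that inhibit papain-like cysteine proteases such as the lysosomal cathepsins, and the mouse genome carries an expanded cluster of related stefin A genes that are known for high expression in neutrophils. Asprv1 encodes a retroviral-like aspartic protease best known from the upper epidermis, where it processes profilaggrin. Neutrophils mature from progenitors that make azurophil granule proteases, through dividing and then postmitotic cells that make specific granule proteins, to mature cells that express secretory and chemotactic receptor genes.

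The 6 stefin genes lie within 299 kb of chromosome 16 (GRCm38, GENCODE vM21), between bases 36156811 and 36455392, with 3 genes on each strand. On the plus strand are Stfa2l1 (ENSMUSG00000059657, 36156811 to 36161953), Gm5483 (ENSMUSG00000079597, 36184212 to 36188111) and Stfa1 (ENSMUSG00000071562, 36276951 to 36285373). On the minus strand are BC100530 (ENSMUSG00000071561, 36359382 to 36367748), Stfa2 (ENSMUSG00000022902, 36403992 to 36408457) and Stfa3 (ENSMUSG00000054905, 36450537 to 36455392). Asprv1 (ENSMUSG00000033508) is unlinked, on the plus strand of chromosome 6 from 86628164 to 86629710. All 7 are annotated as protein-coding.

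The promoters of the 6 stefin genes carried a common stretch of 13 bases at or just upstream of the RefSeq transcription start. It is shown because it sets this locus apart from nearly all other promoters. It was found by searching for the longest strings common to the 6 windows, after the windows had been seen. The windows are from RefSeq (GRCm38.p6), where all 7 genes had a promoter entry of 250 bases before and 50 bases after the start and where Gm5483 is named Cstdc4 and BC100530 Cstdc5. Each line gives 30 bases of the transcribed strand, 5' to 3', with the common stretch in capitals, and the lines follow the order of the genes along the chromosome.
Stfa2l1: tttacagaaACCTTTAAAACCCtgagtctc
Gm5483: tttacagatACCTTTAAAACCCtgactctt
Stfa1: ctttcggatACCTTTAAAACCCtgagtctc
BC100530: tttacagatACCTTTAAAACCCcgagtctc
Stfa2: cttacagaaACCTTTAAAACCCtgagtctc
Stfa3: ttacagataACCTTTAAAACCCcgagtctc
In this order they are chr16:36156766-36156795, chr16:36184171-36184200 and chr16:36277106-36277135 on the plus strand, and chr16:36367562-36367591, chr16:36408375-36408404 and chr16:36455406-36455435 on the minus strand. The stretch began between 12 and 36 bases before the RefSeq start of the 6 genes. The GENCODE coordinates given above differ, and place the lines of Stfa1, BC100530 and Stfa2 inside the gene. Of 32851 promoter windows of the same length in the whole table, 9 (0.0274%) held it on either strand, and all 9 lie on chromosome 16 between 36156766 and 36455435. The other 3 were the RefSeq genes Csta3 (Gm5416 in the expression tables), Cstdc3 and Gm7260, shown here to compare with the members.
Gm5416: tttacagatACCTTTAAAACCCcgagtctc
Cstdc3: tttacagatACCTTTAAAACCCtgagtctt
Gm7260: tttacatatACCTTTAAAACCCtgactctt
The Asprv1 promoter did not hold the stretch. Its last 30 bases before the RefSeq start (chr6:86628144-86628173, plus strand) are given for comparison.
Asprv1: ctaggggtggagcttctagaacaaaggaga
A further 4 motifs were searched on both strands of the same windows. TTGCNNAA (C/EBP) was in 2 of 6 stefin windows, Stfa1 and BC100530, and in 10.8% of all promoters. GAGGAAG (PU.1) was in 3 of 6 (Stfa1, BC100530 and Gm5483) and in 13.6% of all, and TTCNNNGAA (STAT) in 1 of 6 (Gm5483) and in 8.30% of all. TATAAA was in 0 of 6 and in 13.6% of all promoters, and the Asprv1 window held none of the 4. No match of 1 motif overlapped a match of another in these windows. These matches describe letters in a window and not binding.

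Because the genes are near-identical copies in places, part of the counting between them is uncertain. Among all windows of 98 bases (the read length) in the last 500 bases of their GENCODE transcripts, 11.8% of those of BC100530 were also present in another gene of the locus, mostly in BC117090. The share was 6.41% for Stfa1, mostly with BC100530, and 5.97% for Gm5483, mostly with 2010005H15Rik. No such window of Stfa2, Stfa2l1, Stfa3 or Asprv1 was shared within the locus. The summed level of the 6 genes is therefore given beside the single genes.

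The labels call the sorted cells alveolar macrophages, but many of them carried neutrophil genes. Clustering of each library without the 7 genes gave, from marker lists, granulocyte progenitor-like cells (led by Elane, Mpo and Prtn3), cycling immature, immature (Camp, Ngp, Ltf) and mature (Retnlg, Fpr1) neutrophil-like cells, an interferon-response neutrophil-like cluster in the control library alone, and monocyte-like clusters. Mature neutrophil-like cells made up 392 control cells (13.8%) in 1 cluster and 596 OTM cells (29.0%) in 2 clusters. In these cells the F4/80 gene Adgre1, one of the 2 sorting markers, had a UMI in 3.32% of control and 3.69% of OTM cells, against 33.4% and 51.8% of the pooled monocyte-like cells. The neutrophil surface gene Ly6g was at 568 CPM (UMIs per 1000000 UMIs of the same cells) in control and 631 CPM in OTM mature cells, against 35.2 and 45.4 CPM in the monocyte-like cells. The monocyte gene Csf1r went the other way, at 32.3 and 19.8 CPM in the mature and 150.1 and 116 CPM in the monocyte-like cells.

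Stefin transcripts were concentrated in the latest neutrophil stage in both libraries. In the control library, the summed level of the 6 stefins was 75.3 CPM (59.1 to 94.5) in progenitor-like, 186 CPM (164 to 209.6) in cycling immature, 1212 CPM (1166 to 1260.0) in immature and 3796 CPM (3688 to 3906) in mature neutrophil-like cells. In the OTM library the same 4 stages were at 801 CPM (747 to 858), 2824 CPM (2750.4 to 2899), 4861 CPM (4751 to 4973) and 10755 CPM (10639 to 10872). The order of the stages was the same in both libraries, and the intervals of neighbouring stages did not overlap in either. The interferon-response neutrophil-like cluster of the control library stood between its immature and mature cells, at 2610 CPM (2467 to 2758). Mature cells held 43.6% of all stefin UMIs of the control library and 59.5% of those of the OTM library.

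**Figure D1:**
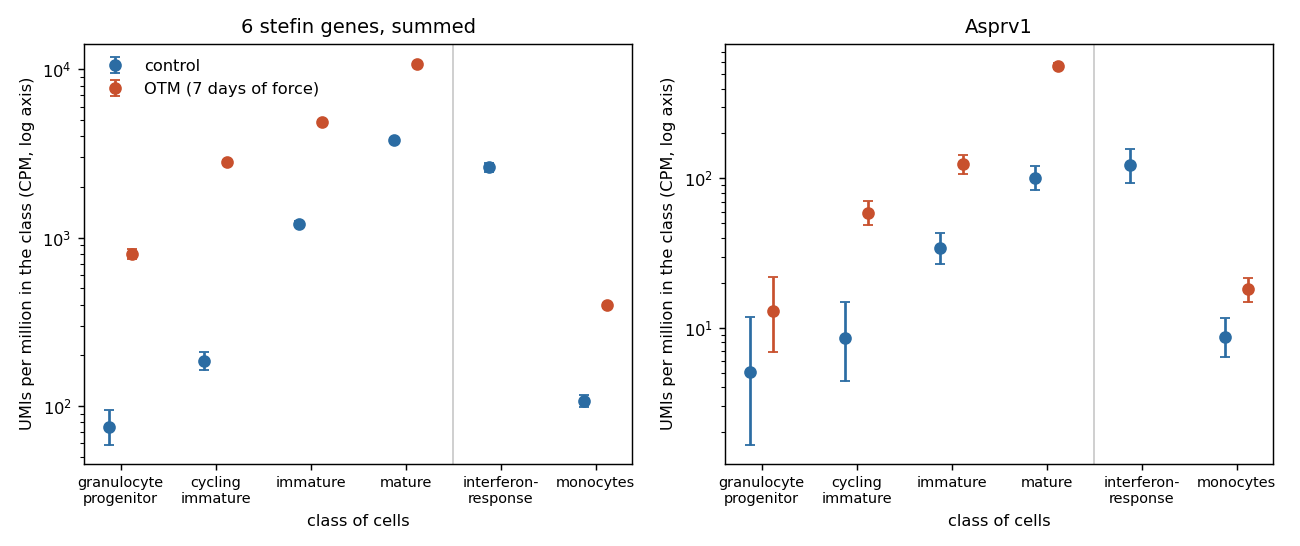
Levels of the 6 stefins summed (left) and of Asprv1 (right) in CPM on log axes, by class of cells, for the control and the OTM library, with exact 95% Poisson intervals of counting error. Stefins step up from 75.3 to 3796 CPM in the control and from 801 to 10755 CPM in the OTM library along the 4 neutrophil stages, and the interferon-response class exists in the control library only.

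In droplet data free RNA can give UMIs in cells that do not express a gene, so the monocyte-like cells serve here as the background. This pool left out, among others, the nonclassical monocyte-like control cluster and the unnamed OTM cluster with macrophage markers. Their higher stefin levels are given below. The pooled monocyte-like cells held stefins at 107 CPM in the control and 396 CPM in the OTM library, which lies above the 75.3 CPM of the control progenitor-like cells. Without the 57 OTM cells called as doublets, the OTM background was 168 CPM. To compare shares at equal depth, each cell was thinned to 1000 UMIs, and no cell was shallower. A stefin UMI was then found in 5.55% of control monocyte-like cells and in 8.75% of control progenitor-like cells, whose interval of 3.59% to 17.2% covers the former. Before thinning, the median depth was 11715 UMIs in these progenitor-like cells and 3974, 5055.5 and 8944 UMIs in the 3 monocyte-like clusters. The share was 9.52% in control cycling immature cells, whose interval of 5.54% to 15.01% also reaches that of the monocyte-like cells. At 2000 UMIs a cell, where 23 shallower control monocyte-like cells were left out, the share was 19.0% (13.4% to 25.8%) in control cycling immature and 9.504% (7.73% to 11.5%) in monocyte-like cells. The control progenitor-like value thus could not be told apart from background, whereas the cycling immature value lay above it in CPM and at 2000 UMIs but not at 1000. At 1000 UMIs the share was 33.6% in immature and 57.4% in mature cells. In the OTM library it was 12.3% in monocyte-like, 25.7% in progenitor-like, 32.5% in cycling immature, 43.6% in immature and 72.5% in mature cells. Without thinning, 67.1% of control and 86.4% of OTM mature cells had a stefin UMI. Measured against the neutrophil transcripts S100a8 and S100a9, stefin UMIs per 1000 such UMIs went from 0.572 in cycling immature to 3.79 in immature and 15.5 in mature control cells, with 5.89 in the monocyte-like cells. In OTM these were 9.36, 16.8, 43.8 and 15.3. Progenitor-like cells were at 0.837 in control, above the cycling immature cells, and at 5.84 in OTM, below them. The ratio thus differed between stages of 1 library.

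Over all cells, the contrast that chose the genes, the summed stefins were at 744 CPM in the control and 3328 CPM in the OTM library, a ratio of 4.47 (4.38 to 4.57). Of the 7 genes, 6 were at least 2-fold higher in OTM, where 1.52% of the 9409 genes with 50 or more UMIs were, and none was at least 2-fold lower, where 5.43% were. Their ratios were 8.29 for Stfa2, 6.24 for BC100530, 5.32 for Asprv1, 5.00 for Stfa3, 3.02 for Stfa2l1 and 2.93 for Gm5483. The exception was Stfa1, which was not higher in OTM: it had 142 UMIs in control and 121 in OTM, a ratio of 0.750 (0.583 to 0.962). The median log2 ratio of the 7 genes was 2.32, against -0.20 for all genes compared. The OTM library also held more mature cells, and with the OTM level of each class weighted by the control share of UMIs in that class, and the interferon-response cells, which OTM lacked, pooled with the mature ones, the stefin ratio was 3.84 and that of Asprv1 4.19. With clustering at resolution 0.3 the stefin ratio weighted in this way was 7.80. With the stricter filter of 200 genes per 1000 UMIs, which left 2444 control and 1255 OTM cells, the stefin ratio over all cells was 2.96.

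The ratio of OTM to control was larger in early than in late neutrophil stages. For the summed stefins it was 15.2 (13.4 to 17.3) in cycling immature, 4.01 (3.83 to 4.19) in immature and 2.83 (2.75 to 2.92) in mature cells. With clustering at resolution 0.3, where the largest neutrophil cluster of OTM had no name, the ratio in mature cells was 6.26. In progenitor-like cells it was 10.6 (8.37 to 13.7). The control level that this last ratio rests on was not separable from background. From cycling immature to mature cells the difference in level went up, at 2638, 3649 and 6959 CPM. The cycling immature cells of the OTM library stood at 2824 CPM, above the 1212 CPM of the immature cells of the control library. These are pooled levels, and the highest 10% of cells held 74.4% of these OTM and 66.8% of these control stefin UMIs. The highest OTM cell alone had 898 of 5612. With each cell thinned to 1000 UMIs, a stefin UMI was in 32.5% of these OTM and 33.6% of these control cells. Without the OTM cells called as doublets the ratios were 15.4, 3.79 and 3.01 in the 3 stages.

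In cycling immature cells 2.27% of 3570 genes were at least 2-fold higher in OTM and 1.96% were at least 2-fold lower. Of the 6 members that reached 50 UMIs there, BC100530 and Gm5483 did so in the control library alone, whereas the other 4 passed only through the OTM library, so no count is given for this class. Stfa2 had 5 control and 174 OTM UMIs, a ratio of 24.5 (10.3 to 76.5). BC100530 had 152 and 4079 UMIs, a ratio of 18.9 (16.1 to 22.4), and Stfa3 had 8 and 217, a ratio of 19.1 (9.53 to 44.8). Stfa2l1, at 32 and 534 UMIs, and Gm5483, at 55 and 585, had ratios of 11.8 and 7.50. Asprv1 had 12 and 117 UMIs, a ratio of 6.87. In progenitor-like cells, where 4.88% of genes were at least 2-fold higher and 5.37% lower by that much, only BC100530 (26 control and 574 OTM UMIs), Gm5483 (30 and 147) and Stfa2l1 (17 and 79) reached 50 UMIs. All 3 did so only through the OTM library, so their direction was set by that minimum and is not counted. In immature cells 6 genes had 50 UMIs, each in the control library alone, and all were at least 2-fold higher, where 2.43% of genes were and 4.6% were lower by that much.

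Each of the 7 genes but Stfa1 had a higher level at every later stage in both libraries. In OTM, Stfa1 was at 11.6 CPM in cycling immature and 7.19 CPM in immature cells. The levels of BC100530, Gm5483 and Stfa2 are given as examples. BC100530 was at 26.5, 108.5, 642 and 1317 CPM in the control progenitor-like, cycling immature, immature and mature cells, and at 569, 2052, 3269 and 5538 CPM in OTM. Gm5483 was at 30.5, 39.3, 309 and 1647 CPM in control and at 145.7, 294, 714 and 3144 CPM in OTM. Both genes had their largest fold step from cycling immature to immature cells in control. In OTM the largest fold step was from progenitor-like to cycling immature cells for BC100530 and from immature to mature cells for Gm5483, whereas in CPM the last step was the largest for both. Stfa2 was at 1.02, 3.57, 38.3 and 139.7 CPM in control and at 3.96, 87.6, 208 and 675 CPM in OTM, of which the progenitor values rest on 1 and 4 UMIs.

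**Figure D2:**
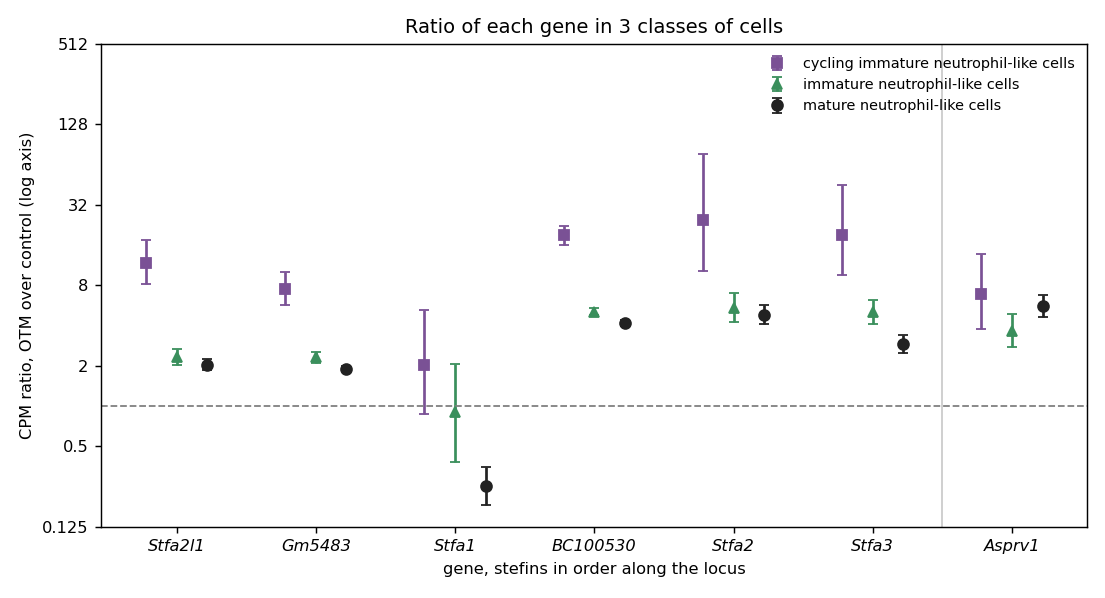
Ratio of the level in the OTM library to that in the control library for each gene (log axis) in cycling immature, immature and mature neutrophil-like cells, with exact 95% conditional binomial intervals of counting error and a dashed line at 1. Stfa1 is at or below the line in immature and mature cells (0.906 and 0.254), and in mature cells the other 6 genes lie between 1.91 and 5.60.

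In mature neutrophil-like cells, 5 of the 7 genes were at least 2-fold higher in OTM, where 3.27% of 3856 genes were, and 1 was at least 2-fold lower, where 5.11% were. The median log2 ratio was 1.55 for the 7 genes and -0.17 for all genes compared. TMM scaling, which assumes that most genes do not differ, would raise every log2 ratio in these cells by 0.22. With mitochondrial, hemoglobin and ribosomal protein genes left out of the totals, the ratio of Stfa2l1 was 1.99, which ends its 2-fold call. TMM brings Gm5483 over 2-fold (2.22), as did the stricter cell filter (2.26) and leaving out called doublets (2.04), and leaves Stfa1 below 1 (0.295).

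BC100530 was at 1317 CPM in control and 5538 CPM in OTM mature cells, a ratio of 4.21 (3.997 to 4.43). It was found in 39.3% of control and 68.0% of OTM mature cells. Gm5483 was at 1647 and 3144 CPM, a ratio of 1.91 (1.82 to 2.00), and was found in 36.0% and 57.0% of cells. The ratios of BC100530 and Gm5483 thus differed by more than counting error. Stfa2l1 was at 458 and 932 CPM, a ratio of 2.04 (1.86 to 2.23), in 31.1% and 48.3% of cells. Stfa2 was at 139.7 and 675 CPM, a ratio of 4.83 (4.14 to 5.68), in 9.95% and 33.1% of cells. Stfa3 was at 152 and 444 CPM, a ratio of 2.93 (2.51 to 3.43), in 10.2% and 29.7% of cells. By these intervals the genes formed a lower pair of ratios, Gm5483 and Stfa2l1, whose intervals overlapped each other, and a higher pair, BC100530 and Stfa2, which also overlapped each other, with Stfa3 apart from both pairs. These intervals leave out the spread between cells. In control, the 173 UMIs of Stfa2 lay in 39 cells and the 188 of Stfa3 in 40. The highest cell held 10.4% and 9.04% of them. The grouping also depended on the processing. With 200 genes per 1000 UMIs, Stfa3 (2.41) overlapped Stfa2l1 (2.48) and Gm5483 (2.26), and Stfa2 (5.97) lay above BC100530 (4.22), as it did with cells classed by marker score (6.33 and 4.25).

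Stfa1 behaved differently, and its level rested on few cells. It was at 83.2 CPM in control and 21.1 CPM in OTM mature cells, a ratio of 0.254 (0.183 to 0.350), although it was found in more OTM cells (42 of 596, 7.05%) than control cells (10 of 392, 2.55%). With each cell thinned to 1000 UMIs these shares were 2.52% and 2.04%, and their intervals overlapped. The 103 control UMIs included 47, 15 and 13 in the 3 highest cells, whereas the highest OTM cell had 11 of 64 UMIs and the median OTM cell with the gene had 1. With the stricter filter of 200 genes per 1000 UMIs the ratio was 0.808. In the 3 earlier stages Stfa1 had at most 23 UMIs in either library, and in cycling immature cells its ratio of 2.03 had an interval of 0.875 to 5.24. In the latest of 5 bins of cells sorted by maturity markers it had 29 and 37 UMIs, a ratio of 1.01, and in the bin before it 77 and 14 UMIs, a ratio of 0.153 (0.0799 to 0.272). A difference in Stfa1 that does not rest on a few control cells was therefore not detectable at this depth.

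The clusters of mature cells were not matched one to one between libraries. The larger OTM cluster (425 cells) had stefins at 9893 CPM (9766 to 10021) and also expressed immature neutrophil markers, and the smaller one (171 cells) was at 13685 CPM (13411 to 13964). Against the control mature cells these are ratios of 2.61 and 3.61. Over the mature class, 3.27% of all genes compared were at least 2-fold higher in OTM and 5.11% were lower by that much. The summed level of the 10 immature neutrophil markers there was 29094 CPM in control and 53668 CPM in OTM, with 5 of 10 at least 2-fold higher, of which Ngp was the most abundant (12226 and 24913 CPM). That of the 11 mature markers was 52675 and 49882 CPM. The basophil or mast cell markers went from 555 to 4.62 CPM, led by Prss34 with 370 control UMIs and 0 in OTM. The granulocyte progenitor markers were at 1112 and 632 CPM, with 3 of 6 at least 2-fold lower and Elane the most abundant, and the erythroid markers at 706 and 399.9 CPM, with 1 of 3 lower and Hbb-bs the most abundant. The monocyte markers were at 2917 and 2370 CPM, with 0 of 10 changed 2-fold and Ly6c2 the most abundant, and the MHC class II markers at 281 and 129 CPM, with 2 of 4 lower. The part of these other cells and stages in the stefin ratio of the class was not tested.

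The neutrophil-like cells of both libraries were also sorted into 5 bins by the log2 ratio of mature to immature marker UMIs, lists that hold none of the 7 genes. Progenitor-like cells were left out, and the interferon-response cells, which only the control library had, were included. The immature markers themselves differed between libraries in mature cells, at 29094 CPM in control and 53668 CPM in OTM. A bin thus need not hold cells of equal maturity in both libraries. From the earliest to the latest bin, the stefin level was 228, 934, 1637, 3487 and 6108 CPM in the control library. In the OTM library it was 2746, 5186, 6955, 13609 and 18091 CPM. Both series went up at every step, and the OTM level was the higher one in each bin, with ratios of 12.03, 5.56, 4.25, 3.90 and 2.96. The ratio thus fell from bin to bin, as it did along the clusters from cycling immature to mature cells. The bins hold the same cells and use marker lists that also named the clusters, so these orders are not independent. The progenitor-like cells, at 10.6, lay below the 15.2 of the cycling immature cells. Among the genes with 50 control UMIs in the earliest bin, the ratio in the earliest and latest bin was 18.3 and 4.01 for BC100530, 8.43 and 2.47 for Stfa2l1, and 3.87 and 2.17 for Gm5483.

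**Figure D3:**
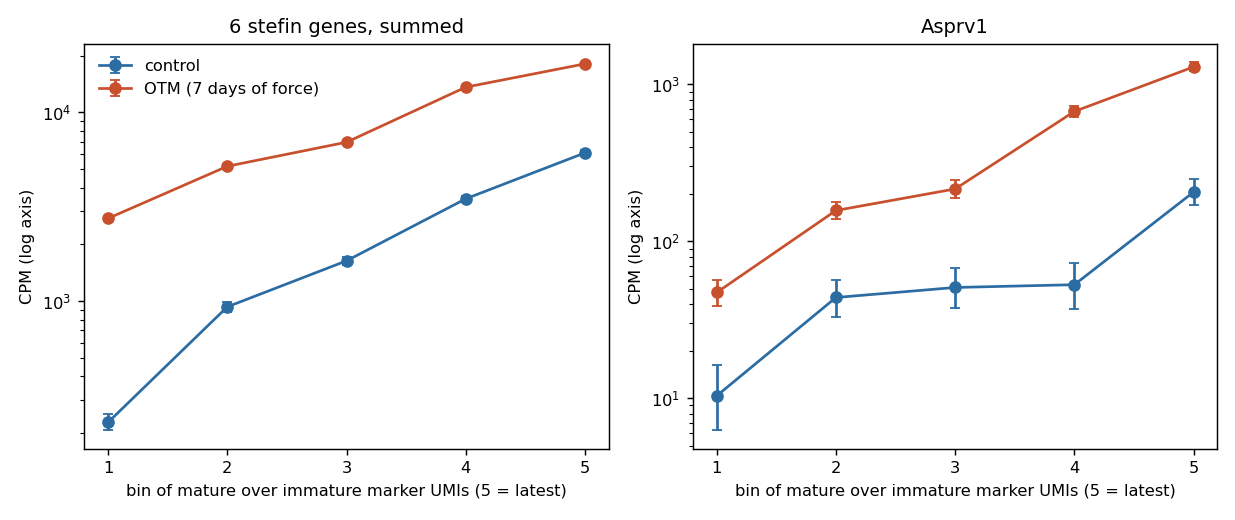
Level of the 6 stefins summed (left) and of Asprv1 (right) in CPM on log axes in 5 bins of neutrophil-like cells, from least (1) to most mature (5) by marker UMIs, with exact 95% Poisson intervals. Stefins go from 228 to 6108 CPM in the control and from 2746 to 18091 CPM in the OTM library, and the lines draw closer towards the latest bin.

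Mature cells differed widely among themselves in their stefin content. In the control library the share of a mature cell's UMIs that came from stefins had a median of 0.120% and a maximum of 10.5%, and 129 of 392 cells had none. In the OTM library the median was 0.513% and the maximum 13.2%, and 81 of 596 cells had none. Stefins made up more than 1% of the UMIs in 61 control cells (15.6%) and in 216 OTM cells (36.2%). The 40 control cells with most stefin UMIs, 10% of the class, held 53.1% of them, and the 60 highest OTM cells 50.3%, so the transcripts were about as unevenly spread in both. In cycling immature cells of the OTM library the spread was wider, with 74.4% of stefin UMIs in the highest 10% of cells and a median share of 0.0210%.

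**Figure D4:**
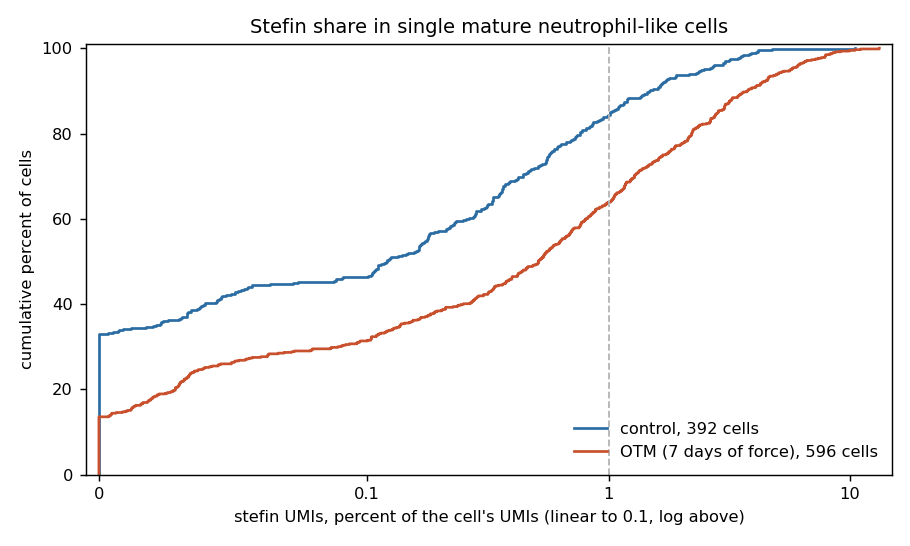
Cumulative percent of mature neutrophil-like cells (vertical axis) against the percent of a cell's UMIs that came from the 6 stefins (horizontal axis, linear up to 0.1 and logarithmic above), for 392 control and 596 OTM cells. The OTM curve lies to the right of the control curve, and the dashed line marks 1%, which 15.6% of control and 36.2% of OTM cells exceeded.

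The cells with most stefin UMIs show how the genes combined. The highest control cell, with 1837 UMIs in all, had 85 of BC100530, 83 of Gm5483, 9 of Stfa2l1, 8 of Stfa2, 7 of Stfa3, 1 of Stfa1 and 1 of Asprv1. Another control cell, with 2826 UMIs in all, had 50 UMIs of BC100530 and 47 of Stfa1 but 1 of Gm5483, 4 of Stfa3 and none of Stfa2, Stfa2l1 or Asprv1. The highest OTM cell, with 9699 UMIs, had 346 of BC100530, 318 of Gm5483, 48 of Stfa3, 24 of Stfa2l1, 24 of Asprv1, and 1 each of Stfa2 and Stfa1. The cells were picked by their stefin sum, to which BC100530 and Gm5483 contributed most UMIs, so high counts of these genes were favoured by that choice. Over the 3 highest cells of each library, Gm5483 ran from 1 to 83 UMIs in control and from 121 to 318 in OTM. At least 3 of the 7 genes were found in 20.4% of control and 50.2% of OTM mature cells, at least 5 in 2.30% and 21.6%, and all 7 in 1 and 12 cells. These counts are without thinning, and the median depth was 2327.5 UMIs in control and 3734 in OTM mature cells.

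Over single mature cells, the correlation between stefins was higher in the OTM library for each pair but Stfa1 with Stfa3 (0.18 in control and 0.17 in OTM). With each cell thinned to 1000 UMIs that pair was at 0.04 and 0.08. The exception was then Stfa1 with BC100530 (0.15 and 0.10). Leaving out Stfa1 and without thinning, the Pearson correlations of log-normalized levels between stefin pairs ran from 0.10 to 0.31 over 392 control cells and from 0.37 to 0.62 over 596 OTM cells. The highest pair was BC100530 with Stfa2 in both, at 0.31 and 0.62. After thinning each cell to 1000 UMIs this pair was at 0.23 and 0.63. It was then the highest in OTM only, since in control Stfa2l1 with Gm5483 was highest at 0.36. The thinned pairs ran from 0.08 to 0.36 in control and from 0.36 to 0.63 in OTM. Without thinning, both BC100530 and Stfa2 had UMIs in 27 control cells (6.89%), against 3.91% from the product of their shares, and in 181 OTM cells (30.4%), against 22.5%. The cells of a library share free RNA and differ in depth, and these values are descriptions without a test. Thinning equalized the total per cell but not the level of a gene. Thinned mature cells had a mean of 0.204 Stfa2 UMIs in control and 0.817 in OTM. The part of this difference in level in the correlations was not tested.

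**Figure D5:**
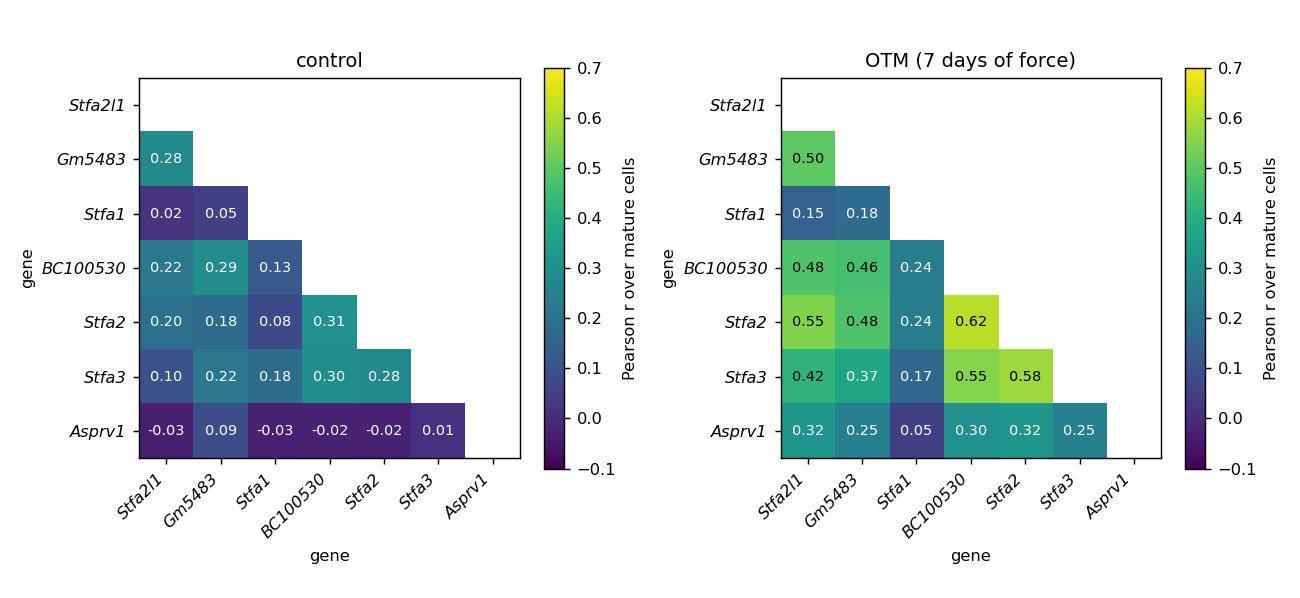
Pearson correlation of log-normalized levels over mature neutrophil-like cells for each pair of the 7 genes, in the control library (left, 392 cells) and the OTM library (right, 596 cells), with stefins in order along the locus. Pairs of stefins other than Stfa1 are between 0.10 and 0.31 in control and between 0.37 and 0.62 in OTM, and Asprv1 is near 0 with every gene in control.

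Asprv1 followed the same stages but with its own pattern. It was at 5.09 CPM in progenitor-like and 8.57 CPM in cycling immature control cells, no higher than the 8.70 CPM of the monocyte-like cells, and at 34.1 CPM in immature and 100.9 CPM (84.0 to 120.2) in mature cells. In OTM it was at 12.9, 58.9, 124.8 and 565 CPM (539 to 593) in the same stages, against 18.1 CPM in the monocyte-like cells. Without called doublets the OTM progenitor-like and monocyte-like cells were at 13.9 and 11.05 CPM, so the order of these low values depended on doublets. The ratio was 6.87 (3.79 to 13.7) in cycling immature, 3.66 (2.78 to 4.87) in immature and 5.60 (4.67 to 6.77) in mature cells, of which the first rests on 12 control UMIs at the background level. In mature cells the ratio was 9.502 with the filter of 200 genes per 1000 UMIs and 15.9 with clustering at resolution 0.3. Along the maturity bins the control level of Asprv1 was 10.4, 43.9, 50.8, 53.0 and 206 CPM, and the OTM level was 47.2, 157, 216, 673 and 1293 CPM. The ratio was highest in the fourth bin, at 12.7, where the OTM level had already gone up and the control level had not. The smaller OTM mature cluster was at 1048 CPM and the larger at 423 CPM. A UMI of Asprv1 was found in 47 control (11.99%) and 216 OTM (36.2%) mature cells, and at 1000 UMIs a cell in 6.89% and 23.0%, against 0.404% and 1.45% of the monocyte-like cells.

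Among OTM mature cells, those with Asprv1 were richer in stefins. In OTM mature cells with an Asprv1 UMI the stefins were at 17186 CPM, against 7208 CPM in those without, and both sets had a median of 3734 UMIs per cell. In control mature cells the corresponding levels were 4545 and 3680 CPM. In OTM immature cells they were 10634 and 2894 CPM, and in OTM cycling immature cells, where 31 cells had an Asprv1 UMI, the order was the opposite, at 2078 and 3049 CPM. The correlation of Asprv1 with the stefin genes other than Stfa1 ran from -0.03 to 0.09 in control and from 0.25 to 0.32 in OTM.

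The gene most like the summed stefins was another gene of the locus. Over the 20 clusters of both libraries (log2 of CPM plus 10, 6470 genes with 200 or more UMIs), the highest Pearson correlation was that of BC117090, a neighbouring gene of the locus outside the 7 (r = 0.97). BC117090 was followed by Glrx, Mrgpra2a, Vasp, Fpr1, Mrgpra2b, Hdc, Il1f9, BC018473 and Lysmd3, all between 0.93 and 0.94, and Asprv1 was also at 0.93. Fpr1 and Hdc were among the markers that named the mature class, and only the 7 genes had been kept out of the clustering, so BC117090 could take part in it. Within mature cells, BC117090 was first in both libraries (r = 0.48 in control, 0.69 in OTM) and Retnlg, a secreted resistin-like protein of neutrophils, second (0.25 and 0.36). The part of shared reads in the value of BC117090, which had 14.1% of its own 98-base windows in common with other genes of the locus, was not tested. In control the next were Fth1, S100a8, Trem1, Litaf, S100a9, Il1f9, Ccl6 and Tmsb4x, and in OTM they were Gm5416, S100a11, C5ar1, Alox5ap, Map1lc3b, Trem1, Eif1 and Cyp4f18. Asprv1, a member and so outside that count, was at 0.04 in control and 0.31 in OTM. The median gene was at -0.03 and -0.02.

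Of the 5 other genes of the locus in the tables, BC117090 reached 50 UMIs in mature cells of the control library alone, and Gm5416 only through the OTM library. BC117090 had 165 control and 1227 OTM UMIs in mature cells, a ratio of 3.04 (2.58 to 3.59). Gm5416 had 15 and 157, a ratio of 4.27 (2.51 to 7.82), and its promoter carries the common stretch shown above. In immature cells BC117090 had a ratio of 3.88 (3.07 to 4.95) and Gm5416, with 30 and 21 UMIs, one of 0.981 (0.534 to 1.77). 2010005H15Rik had 1 and 10 UMIs in mature cells, Gm4758 had none in either library, and Csta1 had no UMI in mature cells. Over all cells Csta1 had 134 control UMIs, of which 131 were in 3 monocyte-like cells, and 1 in OTM.

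No tested gene among the proteases that stefins inhibit, or among the other cystatins, passed 2-fold in mature cells, where 3.27% of all genes were higher and 5.11% lower by that much, so that a count of 0 in lists this short is near the background. Of 11 cysteine cathepsin genes 7 reached 50 UMIs, and their median log2 ratio was 0.12. Ctss, the highest of these by UMIs, was at 164 and 223 CPM, a ratio of 1.36 (1.16 to 1.60), and Ctsb at 136 and 132 CPM, a ratio of 0.975. Of 8 other cystatins 2 reached 50 UMIs. Cstb, the stefin B gene, was at 741 and 480 CPM (ratio 0.648), and Cst3, a secreted cystatin, at 1020 and 729 CPM (0.714). Of 7 other aspartic proteases 3 reached 50 UMIs and none differed 2-fold. Ctsd, the lysosomal cathepsin D gene, was at 389 and 466 CPM, Ctse at 79.9 and 65.0 CPM, and Napsa, the napsin gene, at 96.9 and 184 CPM (ratio 1.90). Markers of keratinocytes, the cells for which Asprv1 is best known, had 15 control and 27 OTM UMIs in mature cells over 14 genes, led by Perp, and Krt5, Krt14, Krt1, Lor, Ivl and Flg were at 0 in both libraries.

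Other late neutrophil genes were mixed. Of 15 late effector genes in mature cells, 3 were at least 2-fold higher in OTM and 1 was at least 2-fold lower, with a median log2 ratio of 0.23, against 3.27% higher and 5.11% lower over all genes and a median of -0.17. The 3 were Ifitm1 (109.8 and 557 CPM), Ifitm2 (871 and 1999 CPM), both interferon-induced membrane proteins, and Icam1 (15.3 and 40.6 CPM), an adhesion molecule. Cxcr4, the receptor that retains neutrophils in marrow, was the lower one, at 197 and 69.6 CPM. Il1b was at 1670 and 3141 CPM, a ratio of 1.88. Of 10 abundant neutrophil transcripts 2 were at least 2-fold higher (3.27% of all genes), Wfdc17 (408 and 2142 CPM) and the granule protein gene Ngp. The calprotectin genes S100a8 and S100a9 had ratios of 1.01 and 0.984.

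In monocyte-like cells the difference was smaller once called doublets, all of them OTM cells, were left out. In the pooled monocyte-like cells 2.18% of genes were at least 2-fold higher in OTM and 4.63% at least 2-fold lower. Of the members that reached 50 UMIs in the control library alone, BC100530 had 204 and 1366 UMIs, a ratio of 5.46, Gm5483 215 and 745 (2.83) and Stfa2l1 120 and 216 (1.47), and Stfa2, Stfa3 and Asprv1 passed only through the OTM library. The ratio of the summed stefins was 3.70. The doublet caller marked 137 OTM cells (6.68%) and none of the control cells. Whether it had worked in the control library was not tested. Leaving out marked cells thus changed the OTM library only, so ratios without doublets do not compare libraries treated alike. Without the 57 OTM monocyte-like cells that the caller marked, the stefin level there was 168 CPM, the ratio 1.57 and that of Asprv1 1.27 (0.855 to 1.90). Marked cells were 16 of the 596 in the mature class. The nonclassical monocyte-like cluster of the control library had stefins at 1231 CPM (1154 to 1313) and Asprv1 at 65.2 CPM, and its second highest marker score was that of mature neutrophils. In the OTM library the unnamed cluster of 252 cells with resident macrophage and MHC class II markers was at 2373 CPM (2312 to 2435).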

How the data were processed

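The members and gene lists were chosen with earlier results of these data known. The authors sorted F4/80+CD11b+ cells after collagenase digestion and gradient centrifugation, aligned the droplet reads to mm10 with Cell Ranger 3.0.0 per the submitters' processing notes, and deposited UMI counts per gene and cell without normalization. Here, cells with at least 200 genes and at most 5% mitochondrial UMIs were kept. Reading the study's filter as 200 genes per 1000 UMIs removed mostly neutrophils and was an alternative. Each library was clustered in Seurat 5.3.0 (12 and 8 principal components, resolution 0.6) without the 7 genes, and clusters were named from marker lists. Doublets were called with Scrublet (scanpy 1.11.5) and kept, except where stated. Levels are pooled UMIs with exact Poisson intervals, shares have Clopper-Pearson intervals, and ratios have exact conditional binomial intervals, all at 95%. Genes with at least 50 UMIs over both libraries were compared, with a fold of 2. Named genes were the 7, the listed genes and the 10 nearest by correlation. TMM factors came from edgeR 4.0.16, used for scaling only. With 1 library per group no p-value was computed, and no test beyond counting error was possible. Some lists share genes, such as Cxcr2 and Lcn2.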

Additional observations from a re-analysis of the deposited data

How the results depend on the processing

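No paired analysis was possible because each group had 1 library. Among the ratios below, no direction reversed under the alternatives run, but most sizes moved. Of the stefin correlations over mature cells, Stfa1 with Stfa3 and Stfa1 with BC100530 changed direction between libraries on thinning. The order of Asprv1 in OTM progenitor-like and monocyte-like cells depended on doublets. The log2 ratio of stefins in mature cells, 1.502 as reported, was 1.63 with 200 genes per 1000 UMIs, 1.59 without called doublets, 1.72 with TMM, 2.65 at resolution 0.3 (where the largest neutrophil cluster of OTM had no name and the control class was merged), 1.41 at resolution 1.0, 1.91 with the members kept for clustering and 1.69 with cells classed by score. Alternatives chosen after seeing the data gave 1.57 in the latest maturity bin, 1.38 and 1.85 for the larger and smaller OTM cluster alone, and 1.63 with interferon-response cells added. For Asprv1 in mature cells, 2.49 as reported, the corresponding values were 3.25 with the stricter filter, 3.99 and 3.10 at resolutions 0.3 and 1.0, 3.04 with the members kept, and 2.07 and 3.38 for the OTM clusters. Over all cells, stefins (2.16) were at 1.57 with the stricter filter, 2.11 with mitochondrial, hemoglobin and ribosomal protein genes left out of the totals and 2.38 with TMM, and Asprv1 (2.41) at 2.61 with the stricter filter and 2.63 with TMM. At control class shares, stefins (1.94) were at 1.56, 1.86, 2.16, 2.96, 1.98 and 1.87 with the stricter filter, without doublets, with TMM, at resolutions 0.3 and 1.0 and by score. This last quantity had no value with the members kept, since OTM then lacked a class. Thinned to 2000 UMIs, 64.3% of 300 control and 78.5% of 596 OTM mature cells had a stefin UMI, with 92 shallower control cells left out. The share of genes at least 2-fold higher in mature cells was 5.57% with 10 UMIs as the minimum and 5.06% with TMM. For single genes and other classes, 17 of 43 values moved by more than counting error. The causes of these shifts were not tested. The depth per cell was lower in the control library, which limits shares of cells more than pooled levels.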
